A study of Drosophila melanogaster with 16 samples.

Results

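The adult salivary gland (SG) was set beside the crop, both taken from flies that carried LpWF, a strain of Lactiplantibacillus plantarum. These are 3 SG libraries and 3 crop libraries, 6 of the 16 libraries of the series, chosen by tissue and treatment from their labels and not by any measured value. All flies were adult mated Canton-S females that had been reared axenically and received LpWF only once adult, so no untreated SG or crop stands beside them, and their age was not given in the sources used here. Each library came from pooled organs dissected in cold PBS, the crops with their ducts. Crop RNA was extracted with the RNeasy kit and sequenced after depletion of ribosomal RNA, whereas SG RNA was extracted with TRIzol and selected for poly(A). Tissue, extraction and library kit therefore differ together and cannot be told apart, and the comparison is a description with no test. The labels number the libraries 1 to 3 in each tissue, and nothing in them says how far replicates were separate dissections. The spread given below is the spread between these libraries, which may be technical. As in any bulk sample, fewer cells of a type and less RNA per cell cannot be told apart.

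SGs open into the mouthparts and are secretory tubes. Their cells send proteins through the endoplasmic reticulum (ER) and Golgi into the lumen, together with salt and water. The crop is a blind sac off the foregut, lined by a cuticle-covered epithelium and wrapped in visceral muscle, which stores liquid food and pumps it back toward the proventriculus (PV), the valve before the midgut. Ducts, PV and SGs lie close together, so each dissection can carry parts of its neighbours.

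Each library was a table of Salmon estimates per transcript, summed here per gene. Reads on genes numbered 30035955, 36828237 and 32095221 in the SG libraries and 24760775, 18186391 and 21968120.0 in the crop libraries, and 98.2 to 98.3% and 86.4 to 88.5% of them, respectively, fell on nuclear protein-coding genes other than replication-dependent histones. Histone genes were left out because their mRNAs lack poly(A) tails. TPM, a read count divided by transcript length and scaled to a total of 1000000, was rescaled over the 13575 remaining genes and is called coding TPM. Because a few SG products take up most of that total, it was also rescaled after the 10 highest genes of each tissue, 20 in all, had been set aside, and this is called trimmed TPM. Differences are means of log2(trimmed TPM + 1) in SGs minus crops, each with a standard error (SE) from 3 and 3 libraries. A gene was counted as higher in a tissue when the difference reached 2 on that scale, 4-fold, and all 3 of its libraries lay above all 3 of the other.

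The crop libraries differed among themselves in products of the neighbouring organs. The 10 highest SG genes together stood at 1666, 2319 and 108 coding TPM in the 3 crop libraries, against 879231 to 893210.0 in SGs. Crop library 3 thus held less of them than the other crop libraries did. The 10 highest PV genes other than ribosomal proteins, a list made after the values were seen, stood at 22056, 80906 and 11138 coding TPM in crops, 48.0, 38.4 and 153 in SGs and 364970.0 to 488492 in the 5 PV libraries of flies with LpWF. Crop library 2 was highest, with 20.2% of the PV mean. Relative to the PV mean, 9 of the 10 genes lay between 15.0 and 24.4% in that library, and the exception was DptA, an antibacterial peptide, at 0.220%. The part of carried-over tissue in the results was not tested.

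**Figure D1:**
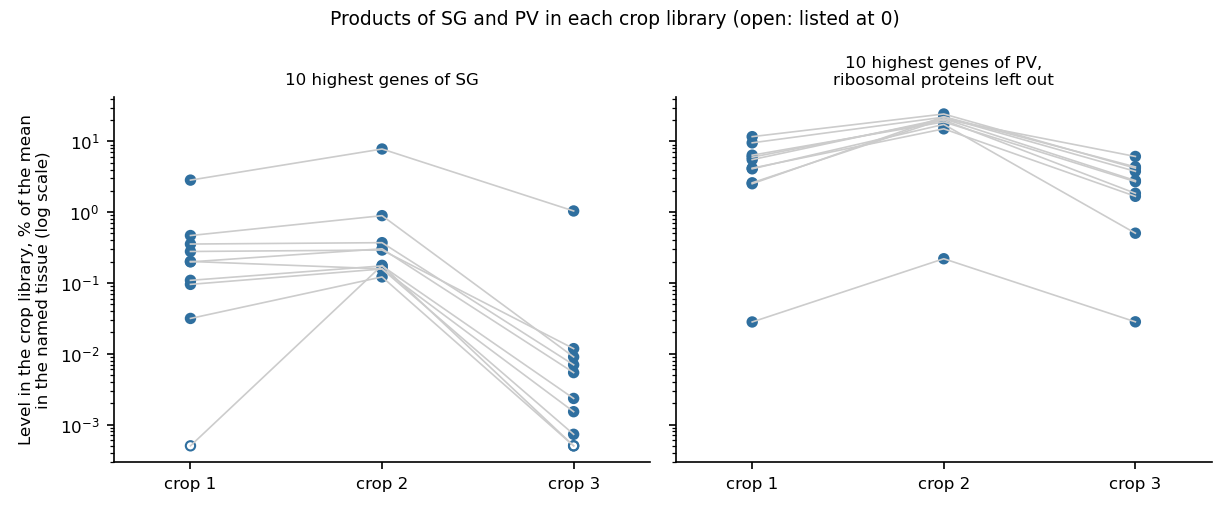
Level of the 10 highest SG genes (left) and of the 10 highest PV genes without ribosomal proteins (right) in each crop library, as a percentage of the mean of the 3 SG or 5 PV libraries on a log axis. Each point is a gene, lines join the same gene across libraries, and open symbols are genes listed at 0; SG products were lowest in crop library 3 and PV products highest in crop library 2.

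Markers matched the labels. The SG regulator sage, a bHLH factor, stood at 243, 227 and 251 trimmed TPM in SGs and 0.974, 0.474 and 0.188 in crops. eyg, a Pax factor of the same gland, stood at 87.7, 109.9 and 78.7 trimmed TPM in SGs and 0.199, 0.305 and 0.0622 in crops. CrebA and fkh, further SG factors, did not meet the limits, with mean trimmed TPM of 65.5 ± 11.3 in SGs and 17.2 ± 6.02 in crops for CrebA (SD, n = 3 each) and 125 ± 18.4 in SGs and 94.8 ± 5.66 in crops for fkh. In crops, the muscle myosin gene Mhc stood at 3374, 2887 and 3114 trimmed TPM, against 2.35, 3.25 and 2.86 in SGs. The 12 glue genes of the larval SG summed to at most 1.78 trimmed TPM in any SG library. Germline markers summed to at most 1.72 in any of the 6 libraries.

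Markers of other cells lay mostly on the crop side on trimmed TPM. Over all 7796 genes compared, as described below, 23.9% were higher in crops and 3.12% in SGs, with a median difference of -1.01. With median-of-ratios scaling, also described below, these shares were 13.9 and 7.00%. The counts of markers are read against them. Of the fat body list 6 of 7 genes compared were higher in crops and 0 in SGs, with summed levels of 2406, 3455 and 2846 trimmed TPM in crops, 563, 456 and 563 in SGs and 1633 to 4051 in PVs. With median-of-ratios scaling 0 of 7 met the limits for SGs and 3 for crops. Its highest genes were the yolk proteins, Yp1 at 1002, 1411 and 1159 trimmed TPM in crops and 282, 231 and 286 in SGs. Of 9 hemocyte and basement membrane genes 7 were higher in crops and 0 in SGs, with sums of 847, 845 and 816 in crops and 44.4, 44.3 and 40.1 in SGs. With median-of-ratios scaling 0 of 9 met the limits for SGs and 4 for crops. Most of that crop sum was crq, a scavenger receptor, at 348, 372 and 369 trimmed TPM in crops and 32.4, 33.9 and 31.3 in SGs, and Pxn, a matrix peroxidase, at 414, 385 and 392 trimmed TPM in crops and 0.513, 0.225 and 0.627 in SGs. Hml, which defines hemocytes more narrowly, stood at 13.3, 12.1 and 9.05 trimmed TPM in crops and 0.763, 0.310 and 0.446 in SGs. Neuronal genes summed to 100.2, 133 and 114 in crops and 77.4, 118 and 88.4 in SGs, and most of the SG sum was Vmat, a vesicular monoamine transporter, at 74.7, 113 and 85.4 trimmed TPM in SGs and 43.5, 55.7 and 61.9 in crops, which did not meet the limits. elav, the pan-neuronal RNA-binding protein, stood at 12.8, 17.1 and 14.3 trimmed TPM in crops and 1.03, 1.73 and 0.908 in SGs. Tracheal genes summed to 430.3, 426 and 399 in crops and 161, 269.5 and 171 in SGs. Most of both sums was pio, at 273, 274 and 260 trimmed TPM in crops and 158, 266 and 168 in SGs, which did not meet the limits. The tracheal FGF receptor btl stood at 26.1, 31.3 and 27.6 trimmed TPM in crops and 1.14, 1.24 and 0.846 in SGs. Of the nephrocyte list 1 of 4 was higher in SGs, Amnionless, part of an endocytic receptor, at 26.0, 27.4 and 8.86 trimmed TPM in SGs and 2.05, 0.650 and 1.17 in crops, and 1 in crops. Each share is 25%, and that of crops is near the share of all genes. Lgr1, a hormone receptor of the endocrine list, stood at 42.7, 67.4 and 48.8 trimmed TPM in SGs and 3.74, 5.19 and 4.49 in crops, while Cyp6g2, which marks the corpus allatum, had a mean of 0.588 ± 0.389 in SGs and 8.10 ± 5.81 in crops (SD, n = 3 each). Akh, the hormone gene of the corpus cardiacum, stood at 1.89, 8.46 and 153 trimmed TPM in crops and 0.911, 0.960 and 3.99 in SGs. It did not meet the limits and was highest in crop library 3. The part of these cells in the results was not tested.

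A few, mostly short genes dominated SG transcripts. The 10 highest genes held 89.3, 87.9 and 89.1% of coding TPM in the SG libraries, a mean of 88.8 ± 0.753% (SD, n = 3). In crops the 10 highest held 12.2, 15.6 and 11.5%, a mean of 13.1 ± 2.20% (SD, n = 3), so the shares of the 2 tissues did not overlap. Without the division by length, as a share of coding reads, the same genes held 68.5, 65.1 and 68.8% in SGs and 5.05, 5.47 and 5.26% in crops. The number of genes listed at a mean of at least 1 coding TPM was 4570 in SGs and 8410 in crops. That limit is stricter for SGs, because their highest genes take up most of the total. At a mean of at least 2 trimmed TPM the numbers were 6636 in SGs and 8032 in crops.

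**Figure D2:**
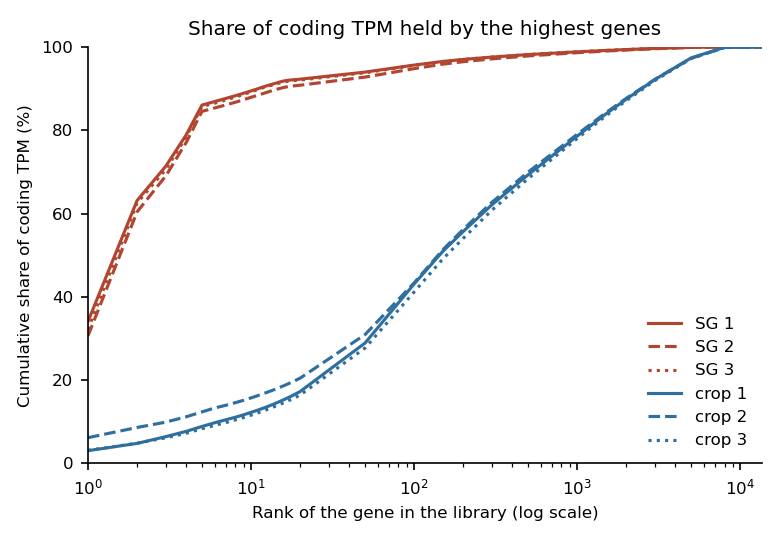
Cumulative share of coding TPM (%) against the rank of the gene in its library (log axis), 1 line for each of the 3 SG and 3 crop libraries. The SG lines pass 84.5% at rank 5, where the crop lines are at 8.31 to 12.4%.

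The highest was CG45080 (FBgn0266455, chromosome 3R from 13318991 to 13319270 in the Ensembl release 115 annotation, build BDGP6.54, which gives all positions here), at 340808, 306235 and 303519 coding TPM in the SG libraries and 345, 552 and 7.40 in the crop libraries. With an effective length of 35.3 bases under the fragment length of 250 bases that the deposited tables assume, its TPM is sensitive to that assumption, and its share of coding reads in SGs was 4.26%, rank 4. Next stood whe (FBgn0031176, chromosome X from 21402339 to 21402772), at 290440.0, 297717 and 321782 coding TPM in SGs and 610.2, 480.3 and 4.60 in crops, with 16.5% of SG coding reads. By reads CG16826 (FBgn0032505, chromosome 2L from 13347773 to 13349020) came first, with 27.0% of SG coding reads and 75127, 80067 and 73001 coding TPM, against 151, 231 and 4.11 in crops. CG34212 stood at 83197 ± 2998 coding TPM in SGs (SD, n = 3) and lcs at 74914 ± 3302. Each of these genes was lower in crop library 3 than in crop libraries 1 and 2.

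Several of these genes are neighbours. lcs and whe lie 5022 bases apart on the X chromosome, and CG34211 and CG34212 lie 2481 bases apart on 2R. On 3L, the 4 genes CG43678, CG12310, CG43679 and CG43680 follow each other between 15049179 and 15053351. CG43680, rank 7 in SGs, stood at 8658, 6436 and 7847 coding TPM there and was listed at 0, 13.5 and 0 in crops. CG43679, rank 10, stood at 5625, 5879 and 5912 in SGs and 27.1, 51.8 and 0.523 in crops. CG12310, below the 10 highest, stood at 759, 874 and 798 trimmed TPM in SGs and 0, 2.22 and 0 in crops. CG43678 stood at 699, 514 and 579 trimmed TPM in SGs and 0, 1.38 and 0 in crops, on 1 crop read. Apart from CG43679, these genes were thus at 0 in crop libraries 1 and 3, and each of the 4 had its highest crop value in library 2.

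LysP (FBgn0004429, chromosome 3L from 1218082 to 1218696), a lysozyme of the digestive group that cleaves bacterial cell walls, ranked 8 in SGs at 5093, 7121 and 6298 coding TPM, against 1.94, 7.51 and 0 in crops. Ag5r, a secreted protein of the antigen 5 family, ranked 6 at 7352, 8390.3 and 7744 coding TPM in SGs and stood at 222, 611 and 81.4 in crops. It was also abundant in PVs, at 5472 ± 1650.4 coding TPM (SD, n = 5), where the other 9 genes had means of 0.481 to 342.

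**Figure D3:**
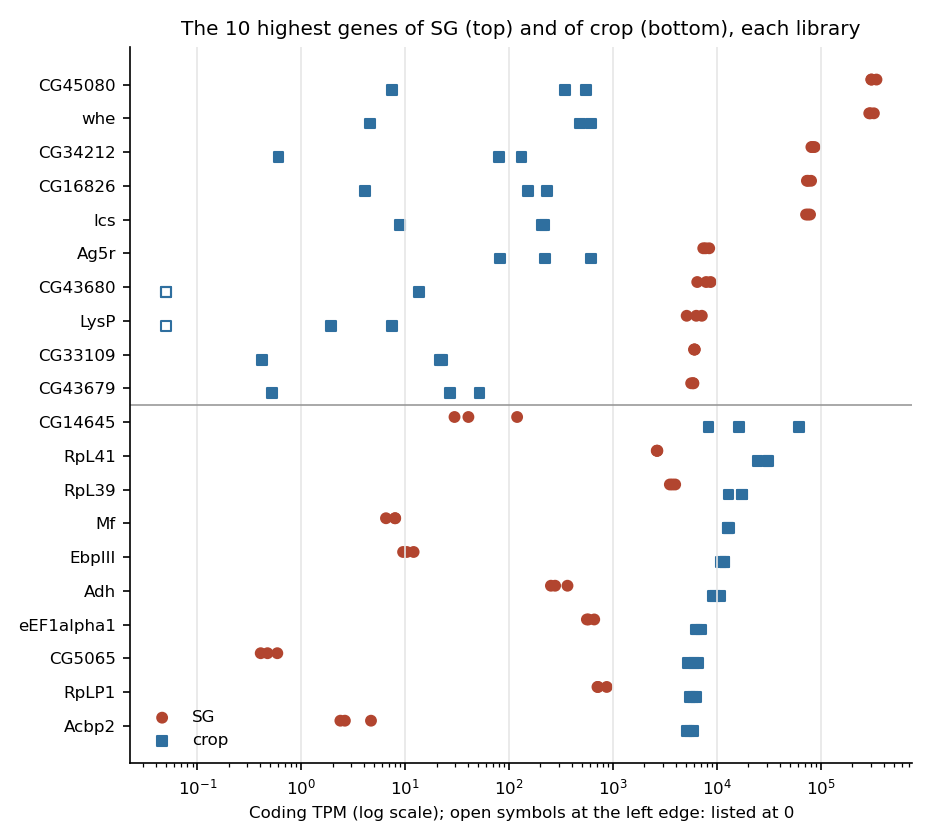
Coding TPM (log axis) of the 10 highest SG genes and the 10 highest crop genes in each of the 3 SG libraries (circles) and 3 crop libraries (squares), with open symbols for genes listed at 0. Crop values of the SG genes spread over orders of magnitude, from 0.605 to 131 for CG34212, whereas SG values lie close together.

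The highest crop genes were of several kinds. CG14645 (FBgn0040687, chromosome 3R from 4335098 to 4335506) led at 16325, 61752 and 8257 coding TPM, a spread that followed the PV products above, and it was also the highest PV gene at 295726 ± 52058 (SD, n = 5). Its SG values were 40.5, 29.8 and 119. Myofilin (Mf, FBgn0038294, chromosome 3R from 15170625 to 15181510), a thick filament protein, stood at 12628, 12812 and 12932 in crops and 7.97, 6.53 and 8.01 in SGs, and its crop values lay within a narrow range. EbpIII, of the small chemosensory protein family, stood at 11768, 11786 and 10966 in crops and 9.54, 12.0 and 10.4 in SGs. Alcohol dehydrogenase (Adh) was at 9053, 9531 and 10794 in crops and 252, 364 and 277 in SGs.

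CG5065 (FBgn0034145, chromosome 2R from 16607654 to 16624894), a predicted fatty acyl-CoA reductase, took the largest share of crop coding reads of any gene, 1.58%. It stood at 5995, 5237 and 6512 coding TPM in crops and only 0.474, 0.588 and 0.407 in SGs, a log2 difference on the trimmed scale of -10.23 ± 0.11 (SE). Acbp2, a carrier of acyl-CoA, stood at 5915, 5416 and 5169 coding TPM in crops and 2.38, 2.63 and 4.69 in SGs. Ribosomal genes RpL41, RpL39 and RpLP1 and the elongation factor gene eEF1alpha1 made up the rest. On coding TPM they were lower in SGs, RpL41 at 2661, 2625 and 2647 against 30576, 24476 and 31201, but on trimmed TPM their log2 differences were only -0.37 ± 0.11 for RpL41, 0.99 ± 0.12 for RpL39, 0.11 ± 0.09 for RpLP1 and -0.39 ± 0.05 for eEF1alpha1. RpL39 and RpLP1 thus changed direction between these scales, and RpL41 and eEF1alpha1 had lower SG means on both.

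Of 7796 genes compared, with a mean of at least 2 trimmed TPM over the 6 libraries, 243 (3.12%) were higher in SGs and 1865 (23.9%) were higher in crops. The median log2 difference over all of them was -1.01, so that trimmed TPM still sets most genes lower in SGs. Each group of genes below is read against that median, and its counts against these shares of 3.12 and 23.9%. Scaling by the median of ratios, which sets the median gene to no difference, gave 536 genes higher in SGs (7.00%) and 1065 higher in crops (13.9%) of 7662 compared. Of the genes higher in SGs, 41 were counted under all 5 scales tried and 215 under the 4 that leave out the highest genes or use a scaling factor, and of those higher in crops 926 were counted under all 5. On coding TPM with no gene set aside, only 61 genes were higher in SGs and 6863 in crops. The median SD between replicates on the log2 scale was 0.151 in SGs and 0.135 in crops. Spearman correlations between libraries of a tissue were 0.985 to 0.988 in SGs and lower, 0.966 to 0.969, in crops. The 2 groups of libraries did not overlap for 6704 genes, 86.0% of those compared. Genes just inside the limit had differences of 2.01 and -2.0.

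Length moved with the difference. With the genes in 4 groups of 1949 by effective length, its median was -0.41 in the shortest group and -1.45 in the longest, with 92 and 30 genes higher in SGs and 366 and 618 higher in crops. The part of length was not tested.

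**Figure D4:**
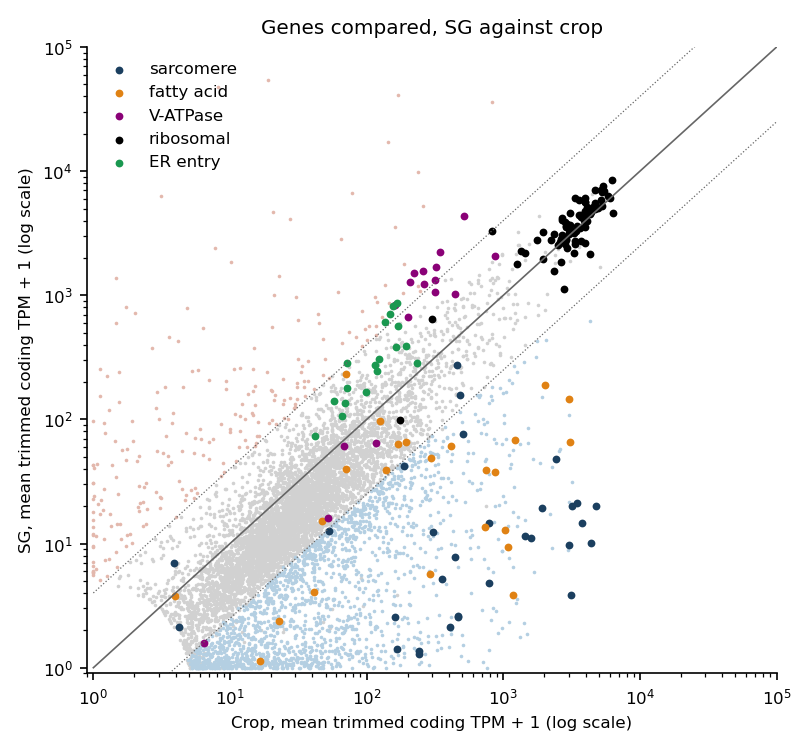
Mean trimmed TPM + 1 of each compared gene in SGs (vertical) and crops (horizontal), both on log axes, with the line of equality and the 4-fold limits. Pale red points are the 243 genes higher in SGs, pale blue the 1865 higher in crops and grey the rest; dark points are 5 gene lists, of which ER entry and most V-ATPase genes lie above the line and most sarcomere genes far below it.

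The 5 PV libraries of flies with LpWF were prepared with the crop's kit and give a comparison within it. Crops were at least 4-fold above PVs, with no overlap of libraries, for 683 of the 7796 genes (8.76%), and for 577 of the 1865 genes higher in crops than in SGs (30.9%). For another 131 of these 1865 the crop was at least 4-fold below PVs (7.02%), against 266 of all 7796 (3.41%). Of the 243 genes higher in SGs, 156 (64.2%) were also at least 4-fold above PVs with no overlap, against 244 of all genes (3.13%), a comparison of unlike kits. The comparisons with PVs share the crop or SG libraries with the main one, so their values are given side by side only.

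Among genes of at least 100 trimmed TPM in SGs, the largest differences toward SGs belonged to CG34211, CG13947, CG30371, CG8708, CG12310, Drs, CG43678 and alpha-Man-Ic. CG34211 stood at 51830.2, 41763 and 49412 trimmed TPM in the SG libraries and 0, 21.5 and 0 in the crop libraries. Only 2 crop reads lay on it, its effective length was 8.67 bases, and the ratio of means was 6663, with a 95% counting interval of 1845 to 55019. CG13947 stood at 65092, 28436 and 68197 trimmed TPM in the SG libraries and 35.1, 18.8 and 0 in the crop libraries, with SG library 2 below the others. CG30371 stood at 6228, 6516 and 6251 trimmed TPM in the SG libraries and 2.41, 3.78 and 0.147 in the crop libraries, a log2 difference of 11.22 ± 0.62 (SE). For CG8708, of the core 1 galactosyltransferase family that extends O-linked sugars, the values were 1480.0, 1135 and 1530.3 trimmed TPM in the SG libraries and 0.785, 0.577 and 0 in the crop libraries. alpha-Man-Ic, by name a class I mannosidase of N-glycan trimming, stood at 645, 742 and 771 trimmed TPM in the SG libraries and 1.18, 0.777 and 1.13 in the crop libraries, a log2 difference of 8.47 ± 0.12 (SE), with crop values alike in all 3 libraries. That no SG library overlapped a crop library in these 8 follows from the rule that counted them. Their means in PVs ran from 0.372 to 9.97 trimmed TPM.

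Genes for the entry of secreted proteins into the ER stood higher in SGs relative to other genes. Signal peptidase, which cuts signal peptides from proteins entering the ER, led them. All 18 members of the list had a difference above the median of all genes and above 0, with a list median of 1.27 against -1.01 for all genes, and 4 met the limits for SGs while 0 did for crops. These 4 were the signal peptidase subunits Spase25, Spase22-23, Spase12 and twr. Spase25 stood at 882, 739 and 823 trimmed TPM in the SG libraries and 146, 187 and 135 in the crop libraries, a log2 difference of 2.39 ± 0.16 (SE). Spase22-23 stood at 933, 808 and 858 trimmed TPM in SGs and 174, 153 and 168 in crops, a difference of 2.38 ± 0.08. The differences were 2.24 ± 0.09 for Spase12 and 2.18 ± 0.16 for twr. The translocation channel subunit Sec61alpha had the smallest difference, 0.29 ± 0.12, at 284 ± 39.1 in SGs and 231 ± 11.8 in crops (SD, n = 3 each). On the median-of-ratios scale 14 of 18 members met the limits for SGs and 0 for crops. On coding TPM with no gene set aside, Spase25 and Spase22-23 pointed the other way, and so did the list median. It lay 1.43 above the -3.17 of all genes on that scale, below 0.

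Chaperones and stress sensors of the ER moved less evenly. Of 20 compared, 2 met the limits for SGs and 2 for crops, with a median of 0.32. That is 10% each, against 3.12 and 23.9% of all genes, and 17 of the 20 lay above the median of all genes. Ero1L, the oxidase that drives disulfide bond formation, stood at 191, 218 and 194 trimmed TPM in the SG libraries and 25.3, 39.3 and 37.4 in the crop libraries. Manf, an ER-resident trophic factor, stood at 521, 305 and 347 trimmed TPM in SGs and 86.4, 94.9 and 91.8 in crops. In the other direction lay Atf6 and PEK, both sensors of unfolded proteins. Atf6 stood at 15.2, 10.9 and 13.3 trimmed TPM in SGs and 43.7, 67.2 and 61.0 in crops, and mean trimmed TPM of PEK was 9.55 ± 1.36 in SGs and 41.2 ± 5.44 in crops (SD, n = 3 each). Xbp1, the factor downstream of the sensor Ire1, was the highest list member in crops, at 1060.0, 911 and 1017, and was at 740.5, 821 and 826 in SGs. Calr, the chaperone calreticulin, was the highest in SGs at 1103, 823 and 873, against 539, 533 and 546. Neither met the limits. With median-of-ratios scaling 3 of 20 met the limits for SGs and 0 for crops, so Atf6 and PEK met the limits on the trimmed scale and not on that one.

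Vesicle coats and cargo receptors between ER and Golgi had a median of 0.77. Against 3.12 and 23.9% of all genes, 1 of 24 (4.17%) met the limits for SGs and 1 (4.17%) for crops. The former was p24-1, a cargo receptor of the p24 family, at 452, 378 and 407 trimmed TPM in the SG libraries and 61.9, 63.3 and 70.0 in the crop libraries. bai, of the same family, was the highest SG member, at 896, 739 and 788 trimmed TPM in SGs and 249.7, 269 and 265 in crops, a difference of 1.62 ± 0.09 that did not meet the limits. The gene higher in crops was opm, of the p24 family as well, at 70.4, 118 and 38.9 trimmed TPM in crops and 15.5, 14.2 and 14.9 in SGs, whose mean in PVs was 725 ± 113 (SD, n = 5) and which was highest in the crop library richest in PV products. Arf1, the GTPase that recruits the COPI coat, differed by 0.00 ± 0.19. With median-of-ratios scaling 11 of 24 met the limits for SGs and 0 for crops, and p24-1, like Ero1L, pointed the other way on coding TPM with no gene set aside.

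Enzymes of O-glycosylation lay on both sides. Pgant enzymes attach the first sugar of mucin-type glycans, and members of this family met the limits in either direction. Pgant9 did not meet them, at 175 ± 19.7 trimmed TPM in SGs and 94.2 ± 9.32 in crops (SD, n = 3 each). Of 22 genes of this pathway and its sugar supply, 3 met the limits for SGs and 6 for crops, with a median of 0.39. These are 13.6 and 27.3%, against 3.12 and 23.9% of all genes, so the crop share was near that of all genes. Toward SGs lay GlcAT-P, a glucuronyltransferase, at 234, 289 and 241 trimmed TPM in the SG libraries and 10.5, 25.5 and 4.91 in the crop libraries. Pgant6 stood at 191, 143 and 181 trimmed TPM in SGs and 15.7, 25.7 and 15.3 in crops. Pgant7, the third gene on that side, stood at 286, 291 and 298 trimmed TPM in SGs and 34.6, 34.3 and 40.6 in crops, and its SG libraries were close together. Toward crops lay Pgant4, at 95.7, 196 and 25.7 trimmed TPM in crops and 0.362, 0.572 and 2.77 in SGs. C1GalTA, which adds the galactose that follows, stood at 15.7, 22.6 and 15.2 trimmed TPM in crops and 1.24, 1.96 and 0.920 in SGs. Pgant4 stood at 1535 ± 235 in PVs (SD, n = 5) and was highest in crop library 2 and lowest in library 3, as the PV products were. Of the 6 genes higher in crops, 3 were at least 4-fold lower in crops than in PVs. With median-of-ratios scaling 7 of 22 met the limits for SGs and 4 for crops, so the balance between the tissues turned with the scale. UGP, which makes UDP-glucose, was at 118, 131 and 139 trimmed TPM in crops and 29.6, 30.2 and 29.7 in SGs. In contrast, mmy, which makes UDP-N-acetylglucosamine, was the highest SG member, at 352, 355 and 364 trimmed TPM in SGs and 86.4, 120.1 and 78.3 in crops, below the limits.

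Subunits of the vacuolar proton pump (V-ATPase), which acidifies vesicles and, in the plasma membrane, energizes epithelial ion transport, stood higher in SGs. Of 17 compared, 9 met the limits for SGs and 1 for crops, with a median of 2.08 against -1.01 for all genes. Vha13 stood at 3906, 4784 and 4442 trimmed TPM in the SG libraries and 505, 507 and 527 in the crop libraries, a difference of 3.09 ± 0.09 (SE). Of the ATP-binding sector, Vha68-2 stood at 1967, 2538 and 2241 trimmed TPM in SGs and 358, 341 and 333 in crops and Vha55 had mean trimmed TPM of 1506 ± 230.3 in SGs and 223 ± 12.6 in crops (SD, n = 3 each). In the membrane sector, Vha100-2 stood at 1243, 1829 and 1615 trimmed TPM in SGs and 266, 250.5 and 250.3 in crops. SG levels of these genes were several times those of crops in every library. The proteolipid Vha16-1 was at 2045, 2235 and 1922 trimmed TPM in SGs and 788, 954 and 869.9 in crops, a difference of 1.25 ± 0.10 that did not meet the limits. On trimmed TPM other isoforms of the same subunits had higher means in crops. Mean trimmed TPM was 63.1 ± 2.96 in SGs and 117 ± 5.92 in crops for Vha100-1 and 14.9 ± 2.55 in SGs and 51.1 ± 1.15 in crops for Vha68-1 (SD, n = 3 each), neither past the limits. Vha36-3, the member that met them for crops, had a mean of 0.579 ± 0.182 in SGs and 5.48 ± 0.343 in crops. Of the 32 V-ATPase genes, 15 were below the filter in these tissues. On median-of-ratios scaling 13 of 17 met the limits for SGs and 0 for crops, whereas on coding TPM with no gene set aside the list median was -0.97, still above the -3.17 of all genes on that scale.

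Carbonic anhydrases, which convert carbon dioxide to bicarbonate, and aquaporins, channels for water and small solutes, had the highest median of any list with 5 or more genes compared, 3.29. Of 10 compared, 7 met the limits for SGs and 2 for crops. CAH9 stood at 1677, 2055 and 1819 trimmed TPM in the SG libraries and 7.06, 16.1 and 4.20 in the crop libraries, a log2 difference of 7.69 ± 0.51 (SE). CAH1 stood at 2472, 3136 and 2917 trimmed TPM in SGs and 69.5, 62.9 and 59.1 in crops, a difference of 5.45 ± 0.12. The crop values of CAH1 lay close together while those of CAH9 spread more. CAH2 stood at 318, 436 and 363 trimmed TPM in SGs and 13.7, 17.3 and 10.7 in crops, and CAH7, much lower, at 16.0, 22.1 and 16.7 trimmed TPM in SGs and 2.98, 1.60 and 1.67 in crops. Of the aquaporin family, Drip stood at 1529.9, 1354 and 1426 trimmed TPM in SGs and 13.2, 43.2 and 8.73 in crops. Eglp4 stood at 241, 259.5 and 224 trimmed TPM in SGs and 8.56, 24.8 and 19.7 in crops, and Prip at 144, 149.7 and 131 trimmed TPM in SGs and 17.6, 23.0 and 19.4 in crops. These 7 genes were the ones counted for SGs, which already requires that libraries do not overlap. CAH3 differed by 0.11 ± 0.09, with mean trimmed TPM of 64.3 ± 4.76 in SGs and 59.5 ± 4.81 in crops (SD, n = 3 each). CAHbeta and Eglp2 were higher in crops, CAHbeta at 9.12 ± 1.09 in SGs and 44.2 ± 4.45 in crops. Eglp2 stood at 2.45, 12.5 and 3.24 trimmed TPM in crops and 0.583, 0.309 and 0 in SGs, highest in crop library 2, with a mean of 32.3 ± 14.8 in PVs (SD, n = 5). Both calls for crops were lost on median-of-ratios scaling, where 7 genes met the limits for SGs. Drip, Eglp4 and Prip had means of 302 ± 60.8, 76.2 ± 14.5 and 137 ± 52.4 trimmed TPM in PVs (SD, n = 5), and each was highest in crop library 2.

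Of 14 metal-handling genes compared, 2 met the limits for SGs and 4 for crops, against 3.12 and 23.9% of all genes, with a median of -0.55. The crop share is near that of all genes, and the list lay above or below the median of all genes depending on the scale. Metallothionein A (MtnA), a small copper-binding protein, stood at 36070.0, 39611 and 32792 trimmed TPM in the SG libraries and 371, 1653 and 445 in the crop libraries, a difference of 5.79 ± 0.68 (SE), which made it the SG gene with rank 14 by coding TPM. Its mean in PVs was 8539 ± 1532 (SD, n = 5), and it was highest in crop library 2, as the PV products were. MtnC, another metallothionein, was on the crop side at 12.1, 63.5 and 178 trimmed TPM in crops and 0, 2.46 and 0 in SGs, with only 1 SG read, a ratio of 103 with a 95% counting interval of 18.5 to 4061. Mvl, a transporter of manganese and iron, had mean trimmed TPM of 197 ± 26.3 in SGs and 29.9 ± 3.86 in crops (SD, n = 3 each), and ATP7, the copper-exporting ATPase, of 1.45 ± 0.185 in SGs and 27.2 ± 2.37 in crops. Tsf3, of the transferrin family, stood at 43.9, 40.9 and 37.7 trimmed TPM in crops and 3.10, 2.87 and 1.26 in SGs.

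Septate junctions, which seal epithelia, come in a smooth form in the midgut and a pleated form in ectodermal epithelia. All 4 smooth-junction genes were higher in crops than in SGs, Ssk at 15.4, 33.3 and 15.3 trimmed TPM in crops and 0.148, 0.318 and 0.503 in SGs and mesh at 5.89, 14.9 and 3.92 trimmed TPM in crops and 0.0582, 0.245 and 0.145 in SGs. They were highest in PVs, Ssk at 366 ± 84.4 and mesh at 138 ± 24.1 trimmed TPM (SD, n = 5), and all 4 were at least 4-fold lower in crops than there. With median-of-ratios scaling 0 of 3 met the limits for SGs and 2 for crops. Of 17 pleated-junction genes, 5 were higher in crops and 0 in SGs, with a median of -1.27. Both that median and the crop share of 29.4% were near those of all genes, -1.01 and 23.9%. With median-of-ratios scaling 0 of 17 met the limits for SGs and 0 for crops, so no call for this list holds on that scale. Nrg, a cell adhesion protein, stood at 78.8, 81.5 and 76.8 trimmed TPM in crops and 10.3, 12.7 and 9.30 in SGs, and cora, a cytoskeletal linker of the junction, at 166, 153 and 164 trimmed TPM in crops and 25.4, 35.3 and 28.4 in SGs. Counting a gene as higher already requires that its libraries do not overlap.

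Immune effectors differed in kind between the tissues. Drosomycin (Drs), an antifungal peptide, stood at 2517, 2406 and 2272 trimmed TPM in the SG libraries and 0, 15.6 and 4.85 in the crop libraries, a difference of 9.03 ± 1.18 (SE). Drsl4, of the same family, was at 7.13, 5.63 and 5.57 in SGs and 0 in every crop library. These were the 2 of 28 antimicrobial and peptidoglycan-recognition genes that met the limits for SGs, and 12 met them for crops, with a median of -1.57. BaraA2, which encodes the Baramicin antifungal precursor, led the crop genes at 1566, 2539 and 2675 trimmed TPM in crops and 14.1, 101 and 6.38 in SGs, where library 2 was highest. BomS1, a Bomanin, a short Toll-dependent peptide, stood at 227, 1188 and 322 trimmed TPM in crops and 11.0, 8.65 and 16.1 in SGs. BomS3, another Bomanin, stood at 469, 2187 and 632 trimmed TPM in crops and 96.4, 22.2 and 32.9 in SGs, and both were highest in crop library 2. Their means in PVs were only 15.0 ± 15.1 for BomS1 and 55.8 ± 29.1 for BomS3 (SD, n = 5), and the fat body markers, apolpp at 118, 286 and 199 in crops, had their lowest and highest crop values in the same libraries. Listericin was at 29.4, 47.0 and 36.9 in crops and 0 in every SG library. PGRP-LF and pirk act as brakes on the Imd pathway. PGRP-LF stood at 24.1, 44.2 and 33.7 trimmed TPM in crops and 1.18, 0.869 and 0.663 in SGs, and pirk at 40.1, 45.7 and 44.9 trimmed TPM in crops and 1.31, 2.59 and 2.86 in SGs. Of the antibacterial peptides, DptA stood at 3.02, 24.6 and 3.00 trimmed TPM in crops and 1.41, 3.07 and 1.65 in SGs, and Def, the insect defensin, at 21.7, 245 and 2.97 trimmed TPM in crops and 3.50, 0.460 and 8.74 in SGs. Both were highest in crop library 2, their means in PVs were 14129 ± 11632 and 6034 ± 3104 (SD, n = 5), and neither met the limits. DptB stood at 0.339, 7.95 and 10.4 trimmed TPM in crops and 1.75, 2.41 and 1.64 in SGs and did not meet them either. Attacins, Cecropins and Drosocin were below the filter. Of the 12 genes higher in crops, 6 were also at least 4-fold above PVs and 0 were 4-fold below. With median-of-ratios scaling 2 of 26 met the limits for SGs and 8 for crops.

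Of the lysozymes, LysD stood at 712, 769 and 899 trimmed TPM in the SG libraries and 0, 2.83 and 8.69 in the crop libraries, and its near-identical neighbour LysE at 4.09, 6.32 and 8.82 trimmed TPM in SGs and 0, 4.79 and 23.3 in crops. Reads of these copies can be divided between them by the counting, so their single values are uncertain. LysB, LysS and LysX were below the filter. LysP, among the 10 highest SG genes, is described above.

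Muscle genes stood far higher in crops. Of 30 sarcomere genes compared, 26 were higher in crops and 0 in SGs, with a median of -6.89, the lowest of the lists compared. Mhc, the muscle myosin heavy chain, stood at 2.35, 3.25 and 2.86 trimmed TPM in the SG libraries and 3374, 2887 and 3114 in the crop libraries, a difference of -9.68 ± 0.12 (SE). Act57B, a muscle actin, was the highest member compared in crops, at 4817, 4329.5 and 5040.2 trimmed TPM in crops and 19.0, 18.2 and 20.5 in SGs. Among thin filament genes, wupA, for troponin I, stood at 4178, 4173 and 4814 trimmed TPM in crops and 9.17, 8.24 and 10.1 in SGs. Tm2, for tropomyosin, stood at 3224, 2906 and 3002 trimmed TPM in crops and 6.70, 8.75 and 10.8 in SGs. All 3 crop libraries were close together for each of these genes. Mlc2, for a myosin light chain, stood at 3777, 3457 and 4056 trimmed TPM in crops and 13.6, 12.5 and 14.8 in SGs. sls and bt encode giant elastic proteins, and their mean trimmed TPM was 0.298 ± 0.0644 in SGs and 241 ± 26.3 in crops for sls and 0.355 ± 0.0655 in SGs and 240.1 ± 27.4 in crops for bt (SD, n = 3 each). Genes of muscle that other cells also use differed less. Mlc-c, the light chain of nonmuscle myosin, was the highest SG member, at 282, 274 and 263 trimmed TPM in SGs and 458, 461 and 463 in crops, and SERCA, the calcium pump of the ER, stood at 156 ± 10.7 in SGs and 478 ± 8.40 in crops. Neither met the limits. The flight-muscle genes Act88F and fln were below the filter. Summed over the list without Mf, levels were 40672, 36693 and 41354 trimmed TPM in crops, 810.2, 818 and 758 in SGs and 4719 to 6266 in the 5 PVs, and 20 of the 26 genes were also at least 4-fold above PVs. With median-of-ratios scaling 23 of 29 met the limits for crops.

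Fatty acid synthesis and elongation stood far higher in crops. Of 24 genes compared, 16 were higher in crops and 0 in SGs, with a median of -3.38. Acetyl-CoA is made by AcCoAS and ATPCL and carboxylated by ACC. AcCoAS stood at 1037, 1056 and 1131 trimmed TPM in crops and 8.62, 8.05 and 8.46 in SGs, and mean trimmed TPM of ATPCL was 38.1 ± 2.44 in SGs and 743 ± 20.9 in crops (SD, n = 3 each). ACC stood at 813, 626 and 768 trimmed TPM in crops and 12.9, 13.4 and 11.6 in SGs. The fatty acid synthase FASN1 stood at 1114, 893 and 1069 trimmed TPM in crops and 13.6, 10.4 and 11.8 in SGs, while its paralogs FASN2 and FASN3 were below the filter. For elongation to very long chains, the elongase Baldspot stood at 2869, 2997 and 3416 trimmed TPM in crops and 52.2, 88.6 and 54.6 in SGs, and bond, another elongase, at 3575, 2625 and 2829 trimmed TPM in crops and 163, 126 and 148 in SGs. The ketoacyl reductase spidey stood at 1.73, 2.92 and 3.86 trimmed TPM in the SG libraries and 1301, 1101 and 1113 in the crop libraries, a difference of -8.29 ± 0.25 (SE). The dehydratase Hacd1 and the enoyl reductase Sc2 differed by -4.51 ± 0.10 and -4.16 ± 0.07. Each step of the elongation cycle thus lay on the crop side. Desat1, the main acyl-CoA desaturase, was at 189 ± 14.1 in SGs and 2029.7 ± 115 in crops (SD, n = 3 each). Of the genes of lipid storage, Lsd-1 met the limits for crops, at 4.67 ± 0.237 in SGs and 292 ± 30.6 in crops, and Lsd-2, bmm and Lpin did not, with differences of -1.58, -0.78 and -0.41. Agpat3, an acyltransferase of phospholipid synthesis, was the highest SG member, at 213, 249 and 234 trimmed TPM in SGs and 69.5, 71.9 and 67.3 in crops, below the limits. With median-of-ratios scaling 14 of 24 met the limits for crops and 1 for SGs. Within the crop's own kit, 2 of the 16 genes were at least 4-fold above PVs, where spidey had a mean of 1334 ± 191 trimmed TPM (SD, n = 5).

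The largest differences toward crops, among genes of at least 100 trimmed TPM there, belonged to CG34330, wat, Mhc, CG3823, CG15213, CG31810, Phk-3 and Jhbp12. Of these 8, Mhc is described above. wat, a fatty acyl-CoA reductase, stood at 1.93, 2.10 and 4.59 trimmed TPM in the SG libraries and 3361, 3017 and 2969.9 in the crop libraries, a difference of -9.71 ± 0.30 (SE), with a mean of 2069 ± 473 in PVs (SD, n = 5). CG34330 stood at 1267, 1425 and 1787 trimmed TPM in crops and 0, 0.611 and 1.99 in SGs. CG3823 stood at 1438, 1179 and 1379 trimmed TPM in crops and 0.337, 0.665 and 1.26 in SGs. CG15213 was at 578, 713 and 985 in crops and had no read in any SG library, so it was at least 371-fold higher in crops against a floor of 3 reads per library. CG31810 stood at 563, 614 and 952 in crops, and 3.55 estimated reads in SGs give a ratio of 6537 with a counting interval of 2422 to 26688. Phk-3, a relative of EbpIII, stood at 0.903, 1.61 and 1.39 trimmed TPM in the SG libraries and 1655, 1413 and 1214 in the crop libraries. The rule that counted these 8 genes requires every crop library to lie above every SG library.

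Takeout-type carriers, secreted proteins of the insect juvenile hormone binding family, lay on the crop side in 7 of 8 genes compared, with 0 in SGs and a median of -5.18. Of these 7, 3 were also at least 4-fold above PVs in crops and 2 at least 4-fold below. Jhbp12 stood at 0.338, 0.534 and 0.317 trimmed TPM in the SG libraries and 713, 839 and 784 in the crop libraries. takeout itself (to) was at 1413, 1444 and 832 trimmed TPM in crops and 0.780, 0.784 and 5.41 in SGs, with SG library 3 and crop library 3 apart from the others. Jhbp14, the highest member compared in both tissues, stood at 1489.8, 1418 and 1614 trimmed TPM in crops and 52.1, 67.7 and 71.0 in SGs. Jhbp5, at 1.76 ± 0.599 in SGs and 5.47 ± 1.36 in crops (SD, n = 3 each), did not meet the limits. EbpIII, set aside with the highest genes, was also on this list of small carriers, though it is of the chemosensory protein family.

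Cuticle genes were mostly higher in crops. Of the 70 Cpr genes, which encode chitin-binding cuticle proteins, 9 were compared, 7 were higher in crops and 2 in SGs. Cpr67B stood at 3483, 3159 and 2865 trimmed TPM in crops and 24.6, 32.3 and 34.8 in SGs. Cpr49Ae stood at 799, 943 and 1166 trimmed TPM in crops and 0.835, 0.880 and 1.57 in SGs, and 6 of the 7 were also at least 4-fold above PVs. The pair on the SG side was low, Cpr73D at 13.4 ± 1.30 in SGs and 0.555 ± 0.459 in crops (SD, n = 3 each) and Cpr67Fb at 10.1, 9.61 and 12.2 in SGs and 0 in every crop library, at least 9.38-fold higher against 3 reads per library. With median-of-ratios scaling 2 of 9 met the limits for SGs and 5 for crops. Among 21 genes of chitin synthesis and apical matrix, 14 were higher in crops and 1 in SGs, with a median of -2.58. Gasp, a chitin-binding matrix protein, stood at 242, 176 and 216 trimmed TPM in crops and 6.51, 6.79 and 6.70 in SGs. obst-E, of the same kind, stood at 347, 292 and 344 trimmed TPM in crops and 11.3, 13.2 and 8.74 in SGs. rtv and knk, which help organize chitin, differed by -4.09 ± 0.12 and -3.29 ± 0.06, whereas the chitin synthase gene kkv was below the filter in both and Chs2, the synthase of the gut, stood at 4.19, 10.2 and 2.86 trimmed TPM in crops and 0.0204, 0 and 0.0191 in SGs, highest in crop library 2, with a mean of 66.8 ± 6.04 in PVs (SD, n = 5). With median-of-ratios scaling 2 of 20 met the limits for SGs and 8 for crops, and 3 of the 14 crop calls were at least 4-fold below PVs. Of the secreted chitinase-like growth factors, Idgf3 was on the SG side at 3220.0, 3972 and 3355 trimmed TPM in the SG libraries and 182, 165 and 136 in the crop libraries. On trimmed TPM Idgf1, Idgf2, Idgf4 and Idgf6 were on the crop side, Idgf4 at 474, 515 and 455 trimmed TPM in crops and 99.0, 135 and 106 in SGs.

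Mucins, which coat gut surfaces, had 5 members compared, 3 higher in crops and 0 in SGs. Muc68D stood at 1915, 4168 and 680.2 in crops, 1.58, 1.07 and 22.1 in SGs and 22614 ± 5584 in PVs (SD, n = 5), and all 3 crop mucins were at least 4-fold below PVs.

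Digestive enzymes were mostly on the crop side, with uneven libraries. Of 21 amylases, maltases and serine proteases compared, 17 were higher in crops and 2 in SGs, with a median of -3.92. Amy-p, an amylase, stood at 314, 2901 and 539 in crops, highest in library 2, against 7.57, 6.74 and 23.9 in SGs and 16828 ± 2909 in PVs (SD, n = 5). alphaTry, a trypsin, stood at 122, 627 and 2766 trimmed TPM in crops and 16.4, 10.4 and 24.2 in SGs, and betaTry, another, at 97.2, 676 and 3095 trimmed TPM in crops and 15.2, 10.9 and 20.3 in SGs. Both were highest in crop library 3. Amy-p and Amy-d, and likewise alphaTry and betaTry, are near-identical copies among which reads can be split. The enterocyte marker mex1 was below the filter, while the whole enterocyte and enteroendocrine list, which includes the trypsins, summed to 318, 1503 and 6332 in crops, most of it the trypsins in libraries 2 and 3, and 36.6 to 57.7 in SGs. On the SG side lay Mal-B1, a maltase, at 1159, 1108 and 659 trimmed TPM in the SG libraries and 25.9, 32.1 and 30.7 in the crop libraries, and Jon99Ci, a serine protease, at 46.3, 65.8 and 63.8 trimmed TPM in SGs and 0, 6.94 and 24.7 in crops. In the opposite direction, 7 of the 17 genes higher in crops were at least 4-fold lower there than in PVs. With median-of-ratios scaling 2 of 20 met the limits for SGs and 14 for crops.

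**Figure D5:**
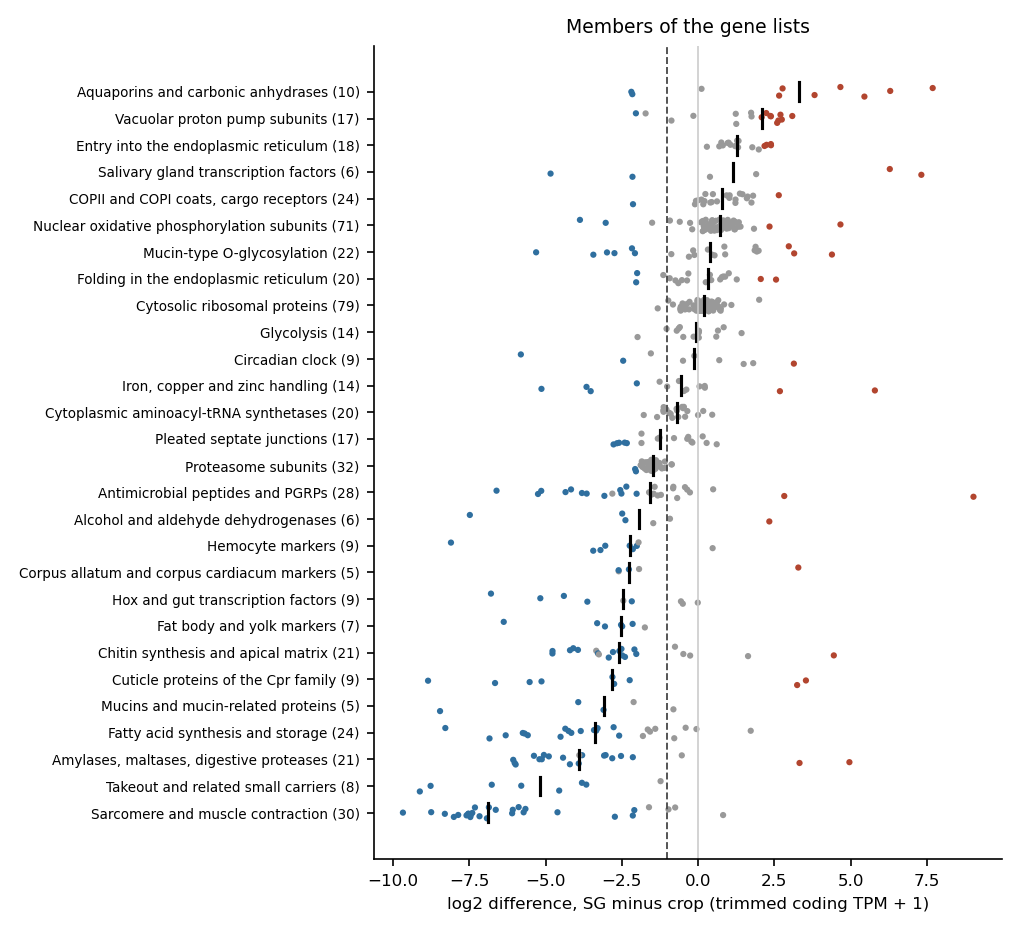
Log2 difference of each compared member of the lists with 5 or more such genes (numbers in parentheses), ordered by the list median (black bar). Red members were higher in SGs, blue higher in crops, grey neither, and the dashed line is the median of all 7796 genes, -1.01; sarcomere genes lie lowest and carbonic anhydrases and aquaporins highest.

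Genes that every cell uses differed from list to list. Of 79 cytosolic ribosomal protein genes compared, 0 met the limits for SGs and 0 for crops, with a median of 0.18 and a range of -1.33 to 2.00, the last just short of the limit. RpS25 stood at 8219, 8702 and 8693 trimmed TPM in SGs and 6684, 5679.6 and 6361 in crops. RpS29 lay on the other side, at 4734, 4518 and 4445 trimmed TPM in SGs and 5897, 6936 and 6049 in crops. Glycolysis had a median of -0.07 over 14 genes and aminoacyl-tRNA synthetases -0.70 over 20, with none of either past the limits. For SerRS, which charges serine tRNA, the values were 91.0, 92.5 and 90.7 trimmed TPM in the SG libraries and 95.2, 92.0 and 88.1 in the crop libraries. Proteasome subunits had a median of -1.49 over 32 genes, against -1.01 for all genes, with every difference negative, and 2 met the limits for crops, none for SGs. With median-of-ratios scaling 0 of 32 met the limits for SGs and 0 for crops. Prosalpha1 stood at 163, 151 and 162 trimmed TPM in SGs and 481, 413 and 451 in crops, and Prosbeta6 at 68.6, 67.4 and 62.3 trimmed TPM in SGs and 282, 273 and 285 in crops. Neither gene's libraries overlapped, as was so for 86.0% of all genes compared. Nuclear genes of oxidative phosphorylation had a median of 0.70 over 71 genes, 2 past the limits for SGs and 2 for crops, and with median-of-ratios scaling 22 and 2 of 71. The common subunits ATPsynC and ND-MLRQ differed by 0.15 ± 0.12 and 1.33 ± 0.09, and the calls lay on variant genes that included COX5BL, at 93.1 ± 8.44 in SGs and 2.76 ± 0.837 in crops, and UQCR-11L, at 0.237 ± 0.411 in SGs and 18.1 ± 8.85 in crops (SD, n = 3 each), the latter with only 2 SG reads.

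Transcription factors separated the tissues as well. In the SG list, 2 of 6 met the limits for SGs, sage and eyg, and 2 for crops, hth and exd, Hox cofactors that act together. With median-of-ratios scaling 3 of 6 met the limits for SGs and 1 for crops. hth stood at 1.42, 1.09 and 0.742 trimmed TPM in SGs and 47.0, 61.7 and 67.8 in crops. exd stood at 44.5, 42.3 and 41.7 trimmed TPM in SGs and 185, 195 and 202 in crops, close to the limit at a log2 difference of -2.15 ± 0.05 (SE). In the list of Hox and gut factors 5 of 9 met the limits for crops and 0 for SGs. With median-of-ratios scaling 0 of 6 met the limits for SGs and 4 for crops. bap, an NK homeodomain factor of visceral mesoderm, stood at 109, 103 and 119 in crops and had no read in any SG library, at least 557-fold higher against 3 reads per library, and bin, a forkhead factor of the same tissue, was at 18.4, 22.8 and 19.6 in crops and 0 in every SG library. vvl, a POU factor, was at 45.0, 45.4 and 48.3 trimmed TPM in crops and 0.358, 0.249 and 0.315 in SGs. In PVs the means were 2.41 ± 1.48 for bap and 3.61 ± 1.08 for bin (SD, n = 5). bowl, of the odd-skipped family, was level at 44.3, 51.9 and 44.8 trimmed TPM in the SG libraries and 44.2, 51.5 and 46.4 in the crop libraries.

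Of 9 clock genes compared, 1 met the limits for SGs and 2 for crops, against 3.12 and 23.9% of all genes. With median-of-ratios scaling 3 of 9 met the limits for SGs and 1 for crops. tim, a repressor of the clock, stood at 207, 237 and 194 trimmed TPM in the SG libraries and 19.9, 27.1 and 23.0 in the crop libraries, a difference of 3.14 ± 0.15 (SE). cry, the blue-light receptor, was on the crop side at 246, 264 and 229.6 trimmed TPM in crops and 32.3, 58.2 and 45.1 in SGs. Pdfr, receptor of the clock neuropeptide PDF, stood at 57.9, 59.1 and 65.4 trimmed TPM in crops and 0.0653, 0.0774 and 0.153 in SGs. vri, another repressor, was the highest SG member, at 224, 243 and 224 trimmed TPM in SGs and 60.9, 67.9 and 67.0 in crops, and per stood at 15.7, 23.8 and 17.1 trimmed TPM in SGs and 5.11, 6.74 and 6.13 in crops. Neither met the limits, and the hour of dissection was not given in the sources used here.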

How the data were processed

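RNA-seq of pooled tissues from flies with LpWF was used here, 3 SG, 3 crop and, beside them, 5 PV libraries; the 5 PV libraries of axenic flies were not used. Reads were single-end, 75 bases. The authors quantified each library separately with Salmon on BDGP6 (Ensembl release 98), and the deposited tables hold, for 33704 transcripts, an estimated count of reads and TPM, whose total also takes in noncoding RNA. The deposited effective lengths assume the same fragment length of 250 bases in every library, so TPM of very short mRNAs is uncertain. The read length, kits and dissection are as the labels and the study's methods give them, and strand settings are not given in the sources used here.

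Transcripts were summed per gene through the Ensembl release 115 annotation, which also gave names and positions; 271 transcripts, 0.146 to 0.179% of reads, matched no gene and were left out. TPM was rescaled as described in the report, with a pseudocount of 1, a filter at a mean of 2 trimmed TPM and a limit of 2 on the log2 scale with no overlap of libraries. Ratios for genes with under 4 reads in a tissue carry exact Poisson intervals, and bounds use a floor of 3 reads per library; both cover counting error only. Differences of genes near 0 in a tissue depend on the pseudocount.

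Named were the 10 highest genes of each tissue, in each direction the 8 counted genes with the largest difference among those of at least 100 trimmed TPM, and in each list its highest member in each tissue and the counted member with the largest difference. Other genes were named after their values were seen. Members and all 36 gene lists were chosen with earlier results of these data known; 4 list symbols matched no gene. Alternatives changed the scale, pseudocount, filter, limit and gene set, left out each library, or used counts rounded to whole numbers in edgeR 4.0.16 (quasi-likelihood test) or DESeq2 1.42.0 under R 4.3.3; the call rule and both tools were tested on simulated data. The crop was set beside PVs, and lists were counted on the median-of-ratios scale, after the data were seen. Python 3.11.15 with pandas 2.3.3 and numpy 2.4.6 did the rest.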

Additional observations from a re-analysis of the deposited data

How the results depend on the processing

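The counts of genes on either side depended on the scale. Genes higher in SGs numbered 243 on trimmed TPM, 61 on coding TPM with the highest genes kept, 536 with median-of-ratios scaling and 544 on TMM-normalized CPM, and genes higher in crops 1865, 6863, 1065 and 1002. With a 2-fold limit they were 501 and 3857, and with a pseudocount of 5 the crop count was 1097. The other pseudocount, both filters, the 50 highest genes set aside and histones kept left each count within 1.5 times. At an adjusted p under 0.05 and 4-fold, edgeR's quasi-likelihood test gave 649 and 1727 and DESeq2 674 and 1964. With the replicate block edgeR gave 654 and 1701. Deviations of same-numbered libraries had correlations of -0.0017, -0.063 and -0.046, within the range of -0.069 to 0.117 for unlike numbers. So few pairs cannot settle whether the numbers pair libraries. Leaving out a library gave 239 to 259 genes higher in SGs and 1772 to 1953 higher in crops. The share of the 10 highest genes was 88.5 to 89.3% in SGs and 11.9 to 13.9% in crops without a library, 67.7 and 9.17% of CPM, and 87.6 and 39.9% of TPM over all transcripts. Coding TPM with the highest genes kept moved the median of all genes by -2.16. On it 9 of 34 list medians and 20 of 100 named genes changed sign from trimmed TPM. These medians included ER entry, ER folding, vesicle coats, O-glycosylation, oxidative phosphorylation and ribosomal proteins. Of the list medians of at least 2 in size, only that of the V-ATPase did, at -0.97. The counted genes among the 20 were Sodh2, Spase25 and Spase22-23, each at -0.66, p24-1 at -0.39 and Ero1L at -0.45. Relative to the median of all genes, 27 of 34 lists stayed on the same side under all 5 scales.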

Other observations

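RNA outside the comparison differed between the tissues, on deposited TPM divided by the coding total of the library and scaled to 1000000. The 13 mitochondrial mRNAs summed to 2405 ± 277 in SGs and 30974 ± 13589.6 in crops (SD, n = 3 each). The 31 replication-dependent histone genes, whose mRNAs lack poly(A), summed to 2.81 ± 0.778 and 2185 ± 303, and small nuclear RNAs to 59.8 ± 52.9 and 95114 ± 49656. Library kit and tissue cannot be told apart in these values.

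In alcohol and aldehyde metabolism, Sodh2, a sorbitol dehydrogenase, stood at 113, 227 and 201 trimmed TPM in SGs and 34.7, 36.8 and 29.3 in crops, whereas its paralog Sodh1 stood at 5.86, 12.5 and 4.33 trimmed TPM in crops and 0.368, 0.363 and 0.862 in SGs. Reads of similar paralogs can be split by the counting. Agps, an enzyme of ether lipid synthesis, stood at 389, 287 and 289.7 trimmed TPM in crops and 0.461, 0.873 and 1.07 in SGs, with a mean of 218 ± 34.9 in PVs (SD, n = 5). These genes were named after their values were seen or by the rule for lists, and no explanation was tested for any of them.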
